A study of Mus musculus with 4 samples.

Results

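Arteriole-side capillary endothelial cells (ECs) were taken from single-cell RNA-seq of cerebral microvessels of *Angpt2*-WT and *Angpt2*-KO mice by a rule on detected genes. A gene counted as detected in a cell with 1 unique molecular identifier (UMI) or more, where each UMI stands for 1 captured transcript. An EC had 3 or more of the 6 endothelial genes *Cldn5*, *Flt1*, *Pecam1*, *Cdh5*, *Kdr* and *Tie1*, and under 3 UMIs in all of *Pdgfrb*, *Vtn*, *Acta2* and *C1qb*, which mark mural cells and microglia. It was placed on the arteriole side with 3 or more of the 6 markers *Unc5b*, *Sema3g*, *Efnb2*, *Gja1*, *Alpl* and *St8sia6*. It was left out with more than 1 of 7 arterial genes (*Gkn3*, *Bmx*, *Mgp*, *Fbln2*, *Stmn2*, *Egfl8* and *Clu*), more than 1 of 6 venous genes (*Adgrg6*, *Ch25h*, *Lrg1*, *Ackr1*, *Il1r1* and *Nr2f2*) or more than 1 of 6 angiogenic genes (*Apln*, *Esm1*, *Angpt2*, *Itga4*, *Fgfbp1* and *Nog*). The rule found 1491 cells among 14924 ECs and 17999 cells in all.

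The 4 mice were 3 months old, with 1 library each and no treatment named. The 2 *Angpt2*-WT mice were *Angpt2*+/+ and the 2 *Angpt2*-KO mice *Angpt2*-/-, and they were bred from heterozygotes on a C57BL6/J background with WT littermates as controls. The KO allele came from *Angpt2*flox mice crossed with *Pgk*-Cre and is constitutive, so *Angpt2* was inactivated in every cell type throughout development. Both replicates numbered 1 (WT1 and KO1) came from females and both numbered 2 (WT2 and KO2) from males, so replicate number and sex cannot be told apart, and each genotype held 1 mouse of each sex. Vessel fragments were drawn from the cerebrum with beads against PECAM1 before dissociation, which selects for endothelium. Values for the 4 mice are given below in the order WT1, WT2, KO1 and KO2. The libraries held 32896366, 42903731, 32558112 and 31753395 UMIs in 4043, 5742, 2900 and 5314 cells. The arteriole-side cells numbered 360, 535, 219 and 377, and held 2671738, 3042942, 1893034 and 2061491 UMIs. The median cell had 5866, 4653, 7167 and 4357 UMIs. The number of barcodes that a pair of libraries shared was 13 at most, and 0 among arteriole-side cells.

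Brain ECs change gradually from artery over capillary to vein, and the capillary stretch just downstream of the arteriole carries some arterial features without the matrix and contractile environment of an artery. *Efnb2*, the arterial ligand of EphB4, and *Unc5b*, a netrin receptor, mark arterial fate, *Gja1* encodes the gap junction protein connexin 43, and *Sema3g* encodes a secreted semaphorin. Notch signalling through *Dll4* and the effector *Hey1* maintains arterial fate, while Wnt and β-catenin signalling maintains the blood-brain barrier, whose transporters such as *Slc2a1* and *Mfsd2a* are highest in capillaries. ANGPT2 is a ligand of the receptor TEK, made mainly by ECs, that antagonizes or activates TEK by context.

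The label was checked against genes outside the rule, and it held for most but not all members. Of the 1491 cells, 123 (8.25%) had 3 or more of 8 genes of fenestrated or peripheral endothelium (*Plvap*, *Plpp3*, *Igfbp3*, *Gpihbp1*, *Cd300lg*, *Exoc3l2*, *Btnl9* and *Rbp7*), a set chosen after the values were seen. They numbered 16, 54, 22 and 31 in the 4 mice, and most of them had 7 or 8 of the 8 genes. Their median level of 24 blood-brain barrier transporters was 20.8, 21.8, 13.3 and 18.5 UMIs per 10000, against 175, 180.2, 195 and 188 in the remaining 1368 members. The low group was present in all 4 mice, as 4.44, 10.1, 10.05 and 8.22% of members, and its summed Wnt and barrier signalling genes were also lower, at 1360.5, 1549, 1354 and 1315 CPM (UMIs per 1000000 UMIs of the summed cells) against 3828, 3817, 3946 and 3542 in the rest. These cells expressed *Efnb2* and *Gja1*, at 404, 262, 329 and 365 and 297, 276, 339 and 446 CPM, but *St8sia6* at only 5.94, 4.77, 0 and 3.85 CPM, against 135, 164, 114 and 178 in the rest. Results are given for all members and, where it matters, without these 123 cells.

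**Figure D1:**
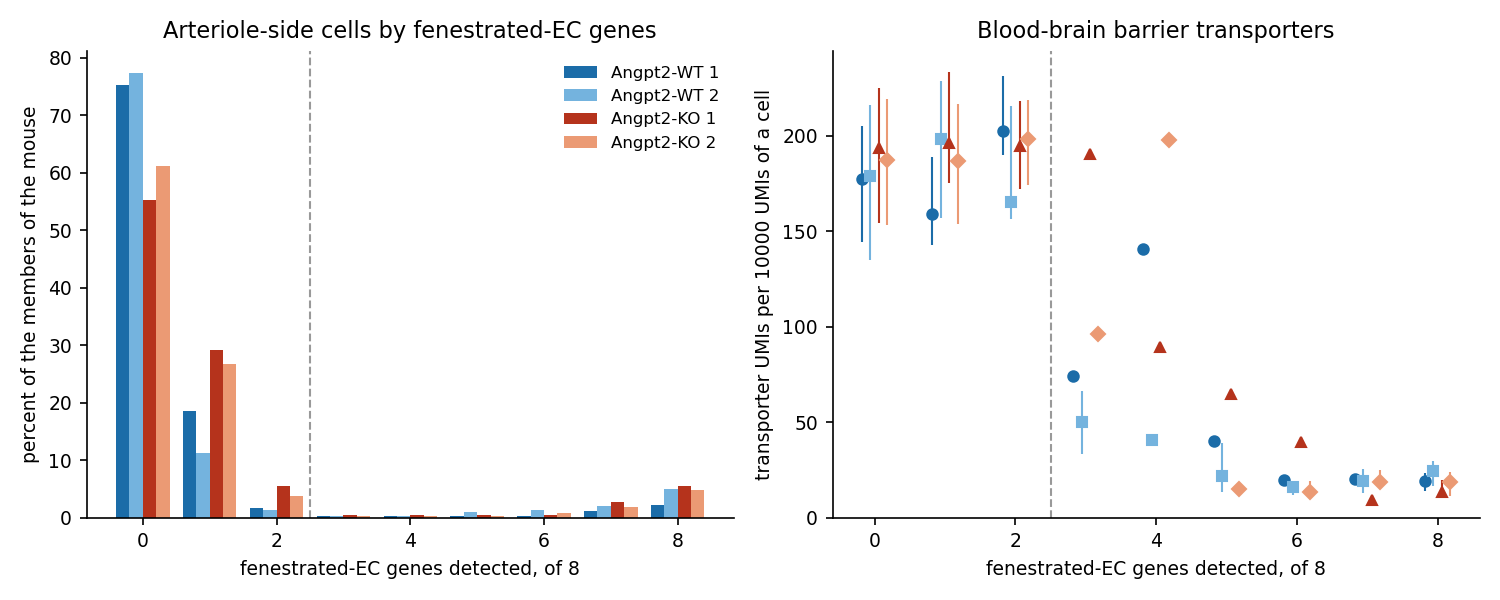
Left, percent of the arteriole-side cells of each mouse by how many of 8 fenestrated-endothelium genes were detected. Right, median UMIs of 24 blood-brain barrier transporters per 10000 UMIs of a cell (bars, quartiles) at each number, with a dashed line at the limit of 3 genes. The medians of the cells with 7 or 8 of the genes lie between 9.26 and 24.6 in the 4 mice, and those of the cells with 2 or fewer between 159 and 203.

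Markers of other brain cells were at low levels, except for blood and choroid plexus genes. Summed over marker lists, pericyte genes stood at 63.3, 26.3, 30.1 and 59.2 CPM (8 genes, *Rgs5* the most abundant, *Anpep* at 0 UMIs), smooth muscle genes at 30.3, 13.8, 5.28 and 25.7 (6 genes), astrocyte genes at 15.7, 14.1, 13.7 and 8.25 (8 genes), oligodendrocyte genes at 16.8, 37.1, 21.1 and 13.6 (6 genes, *Mag* and *Mog* at 0 UMIs), neuronal genes at 6.74, 7.23, 4.23 and 5.82 (5 genes), fibroblast genes at 2.62, 2.63, 1.06 and 1.46 (6 genes, *Lum* at 0 UMIs) and microglial genes at 59.5, 53.9, 55.99 and 84.4 (8 genes). Erythroid and platelet genes reached 10284, 5703, 10875 and 4041 CPM, led by *Hbb-bs*, and were higher in both female mice. In 5 lists both *Angpt2*-KO mice were below both *Angpt2*-WT mice, namely the astrocyte, neuronal and fibroblast lists above and 2 more. Lymphocyte genes were at 11.6, 12.2, 0.528 and 0.970 CPM and choroid plexus genes at 919, 865, 232 and 415 CPM (5 genes, led by *Ttr* in 3 mice and by *Enpp2* in KO1). The choroid plexus sum was carried by *Ttr* at 794, 752, 70.3 and 275 CPM, whereas *Enpp2* was higher in both KO mice at 117, 108, 162 and 138 CPM, and *Folr1*, *Kcnj13* and *Prlr* were at 3.37 CPM or less.

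The 6 markers chose the cells, so their levels are a description. Other capillary ECs were defined as ECs with 0 or 1 of the markers within the same limits (6406 cells), and arterial ECs as ECs with 3 or more of the 7 arterial genes, within the venous and angiogenic limits (1204 cells). *Unc5b* stood at 165, 189.9, 204 and 259 CPM in arteriole-side cells, 7.76, 14.4, 10.7 and 15.8 in other capillary ECs and 177, 179, 258 and 252 in arterial ECs. *Efnb2* showed the same plateau, with 154, 193, 176 and 219 CPM in arteriole-side cells and 161, 145, 219 and 211 in arterial ECs. In both genes the ranges over mice of arteriole-side and arterial cells overlapped. *Sema3g* and *Alpl*, which encodes tissue-nonspecific alkaline phosphatase, were higher again in arterial ECs. *Sema3g* went from 7.02, 6.81, 5.12 and 9.91 CPM in other capillary ECs over 129, 157, 143 and 189 to 333, 341, 494 and 518 in arterial ECs, and *Alpl* from 26.3, 33.02, 11.4 and 16.9 over 203, 269, 123 and 194 to 469.6, 508, 437 and 498. For these 2 genes the 3 populations did not overlap. Among all members, *Gja1* was the only one of the 6 with a higher value in arteriole-side than in arterial cells in all 4 mice, at 139, 148, 177 and 245 against 104, 80.5, 172 and 148 CPM. Without the fenestrated members it was at 128, 127, 156 and 216 CPM, which in KO1 was below the arterial value. *St8sia6*, a sialyltransferase, was at 127, 142, 101 and 156 CPM in arteriole-side cells, 25.2, 29.9, 23.5 and 27.5 in other capillary ECs and 174, 144, 191 and 201 in arterial ECs.

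**Figure D2:**
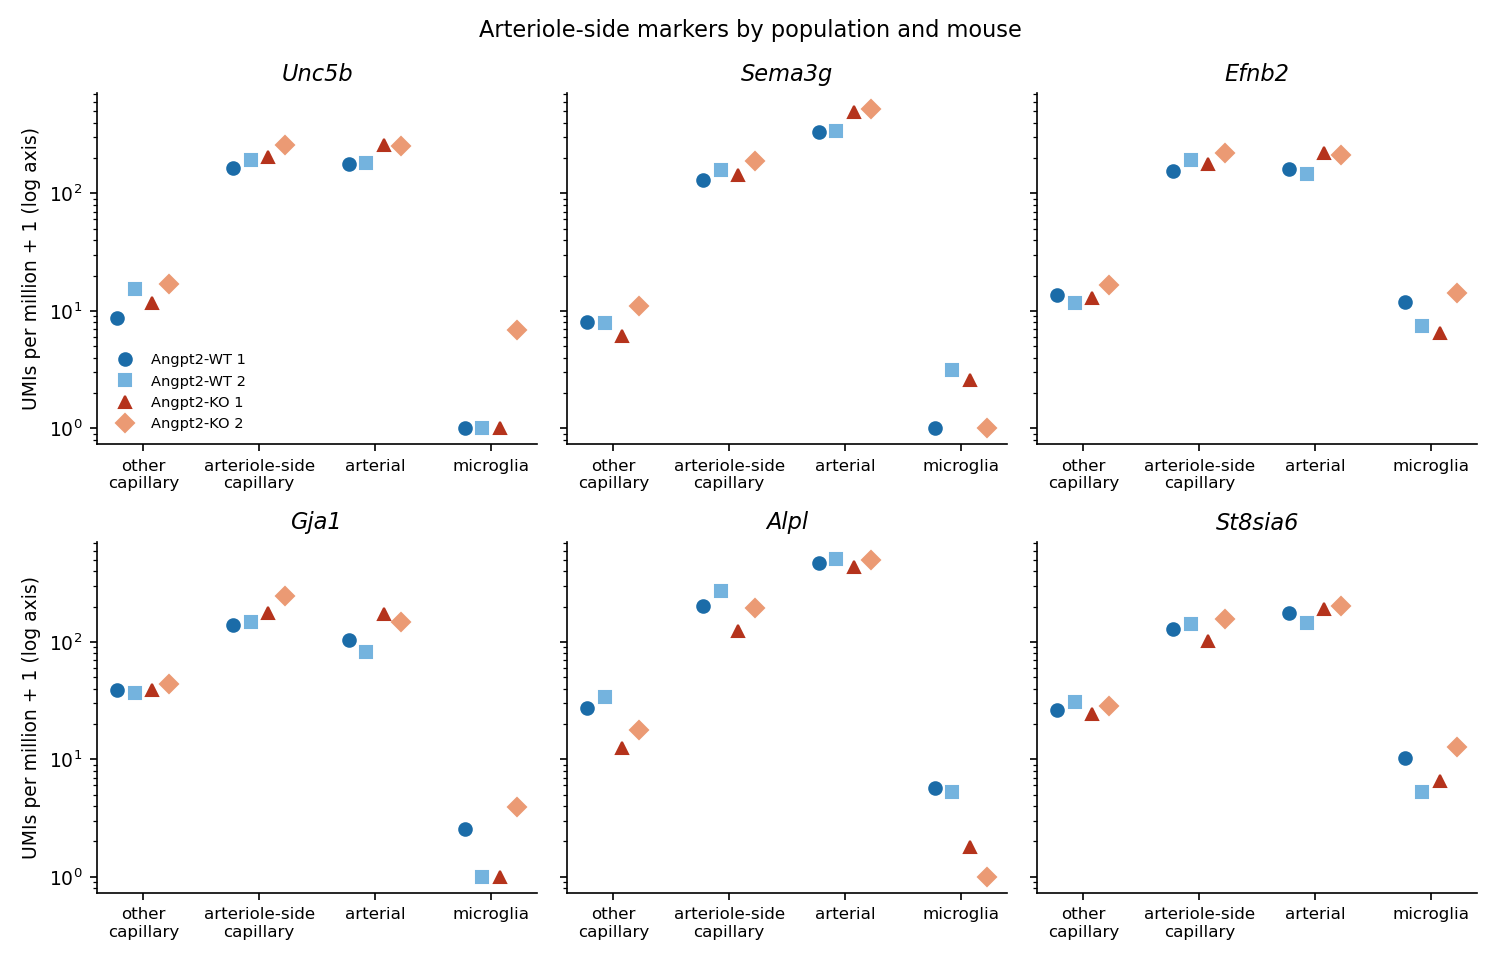
Level of the 6 markers in CPM + 1 on a log axis, in other capillary ECs, arteriole-side capillary ECs, arterial ECs and microglia, with 1 point per mouse. *Sema3g* and *Alpl* climb from other capillary over arteriole-side to arterial ECs, whereas *Unc5b* and *Efnb2* reach about the same level in the last 2 populations of ECs.

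The markers were seen in changing combinations. Of the members, 805 (54.0%) had exactly 3 markers, 428 (28.7%) had 4, 198 (13.3%) had 5 and 60 (4.02%) had all 6. No set of 3 was the most common in every mouse. *Unc5b* with *Efnb2* and *Gja1* was held by 23.9, 17.8, 36.5 and 28.6% of the members of the 4 mice and came first in both KO mice, whereas *Unc5b* with *Efnb2* and *Alpl*, held by 29.7, 22.8, 28.3 and 23.1%, was the more common of the 2 sets in both WT mice. *Unc5b* was found in 71.4, 64.3, 80.8 and 72.4% of members and in 0, 0, 0 and 1.55% of microglia, which should lack it, at median depths of 5866, 4653, 7167 and 4357 and 3986, 3577, 6040.5 and 3219.5 UMIs. *Alpl* was found in 72.8, 73.3, 52.1 and 55.97% of members, fewer in both *Angpt2*-KO mice, and in 1.85, 1.57, 0.481 and 0% of microglia. After thinning each cell to 2000 UMIs before the rule, *Alpl* was in 69.3, 70.3, 44.9 and 55.4% of members. Cells just inside the limit, with 3 markers, and those just outside, with 2, did not overlap over the mice in *Efnb2*, *Unc5b* (134, 147, 141 and 208 against 63.1, 77.6, 62.3 and 89.5 CPM) and *Sema3g* (83.7, 110.0, 106 and 131 against 43.1, 56.1, 31.2 and 61.4 CPM), and overlapped in *Gja1* (111, 125, 133 and 238 against 104, 96.8, 159 and 168 CPM), *Alpl* (196, 231, 75.2 and 147 against 108, 158, 36.6 and 84.2 CPM) and *St8sia6* (115, 113, 68.3 and 134 against 84.02, 92.7, 69.1 and 98.5 CPM). The number of markers itself sets much of these differences.

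The share of arteriole-side cells was lower in both *Angpt2*-KO mice under the rule, and this order depended on the limits of the rule. The share was 10.7, 10.7, 9.69 and 8.72% of ECs, with exact 95% binomial intervals of 9.72 to 11.8%, 9.88 to 11.6%, 8.50 to 10.98% and 7.89 to 9.60%, which cover counting error only. The mean difference was -1.53 percentage points (10.7% ± 0.0145 against 9.20% ± 0.685, SD, n = 2, two-sided exact permutation p = 0.33, the smallest that 2 against 2 mice allow). The limit on angiogenic genes removed 38, 47, 173 and 124 cells that met every other criterion, or 9.55, 8.08, 44.1 and 24.8% of them, and of all ECs 3.82, 3.35, 35.6 and 16.5% failed it. Without it the shares were 11.9, 11.7, 17.3 and 11.6%, a difference of 2.69 points towards the KO that came from KO1 (exact permutation p = 1, n = 2). With every cell thinned to 2000 UMIs, which 3, 27, 3 and 18 members were too shallow to enter, the rule found 4.44, 5.64, 4.14 and 4.84% of ECs (-0.549 points, exact permutation p = 0.667, n = 2), and 445 cells were members both before and after, of 1491 and 662. With thinning and no angiogenic limit together the difference was -0.486 points. With 4 or more markers the shares were 5.46, 4.41, 5.22 and 3.82% (-0.42 points), so KO1 was above WT2. With 2 or more markers the difference was -3.51 points. The share counts cells that met the rule, and levels of its markers differed between genotypes in all ECs. There *Alpl* was found in 36.5, 33.5, 18.7 and 20.2% of cells, and *Gja1* was at 71.6, 59.7, 107 and 107 CPM. Without *Gja1* as a marker the difference was -1.55 points, and the rule was not run without *Alpl*.

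Where the arteriole-side cells stood between capillary and artery was next described outside the rule genes, without the fenestrated cells in any population. These levels carry no test, because the cells were chosen on correlated genes. Against other capillary ECs, 64 of 5801 genes were at least 1.5-fold higher in every mouse and 33 of 5869 at least 1.5-fold lower. Ranked by the smallest fold in any mouse among genes at 20 CPM or more, the first was *Hey1*, a transcriptional effector of Notch, at 65.1, 80.8, 102 and 102 CPM against 15.1, 14.98, 19.98 and 18.6, which is 4.32- to 5.46-fold higher by mouse. It was followed by *Lypd1*, *Alox12*, *Rad54b*, *Runx1t1*, *Gm9946*, *Tec*, *Slc26a10*, *Crispld1* and *Msx1*, with lowest folds by mouse from 4.22 for *Lypd1* to 2.44 for *Msx1*. *Alox12*, which encodes a lipoxygenase, was at 24.4, 30.9, 20.3 and 26.6 CPM against 6.34, 7.49, 3.06 and 3.85. The genes that were lower included *Vcam1*, a leukocyte adhesion molecule (25.2, 8.01, 10.7 and 5.55 CPM against 67.7, 58.1, 32.2 and 51.1), *Slc38a5*, a glutamine transporter (89.5, 111, 104 and 86.6 CPM against 225, 335, 289 and 311), and *Car4*, a carbonic anhydrase (384, 454, 416 and 374 CPM against 912, 1145, 1207 and 1031), besides *Flrt2*, *Tmsb10*, *Unc13c*, *Car14* and *Klk8*. With the fenestrated cells kept in every population, *Vcam1* was at 23.6, 6.90, 9.51 and 6.31 CPM in the arteriole-side cells and at 172, 253, 284 and 247 CPM in arterial ECs, so it did not lie between capillary and artery.

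Against arterial ECs, 116 of 5801 genes were at least 1.5-fold higher in every mouse and 170 of 5771 at least 1.5-fold lower. Genes of the elastic arterial wall were among those that were lower. *Eln*, the gene of elastin, was at 8.79, 10.3, 7.76 and 4.996 CPM against 137, 199.6, 134 and 309, and *Fbln5*, an elastic fibre protein, was at 0, 0.381, 0 and 0.555 CPM against 76.1, 139, 98.7 and 222. *Nos1*, *Cytl1*, *Npnt*, *Plcg2*, *Ptgis* (prostacyclin synthase), *Vegfc*, *Igfbp4* and *Col18a1* completed the 10, and the smallest fold in any mouse among them was 9.21, for *Col18a1*. The genes that were higher were led by *Ivns1abp* (444, 363, 726 and 740.5 CPM against 89.3, 66.2, 159.8 and 148) and held the capillary transporters *Slc38a5* and *Slc7a5*, the latter part of the large neutral amino acid transporter, at 899, 761, 841 and 873 CPM against 347, 242, 279 and 242. *Car4*, *Lepr*, *Tiam1*, *Hmcn1*, *Ctla2a*, *Gatm* and *Ttyh2* completed the 10. *Car4* and *Slc38a5* thus lay between capillary and arterial ECs in every mouse.

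Levels of listed pathway genes were also described, with genes named here after their values were seen and with the fenestrated cells left out of the arteriole-side sum alone. Not all of them lay between capillary and artery. *Dll4*, the arterial Notch ligand, went from 70.9, 65.4, 82.2 and 71.5 CPM in other capillary ECs over 118, 136, 158 and 170.4 in arteriole-side cells to 193, 175, 260.2 and 203 in arterial ECs, and the ligand *Jag2* from 107, 127, 134 and 135 over 189, 225, 173 and 207 to 332, 350.2, 330.3 and 369. In each mouse the order was the same. The arterial connexin *Gja4* was at 2.40, 6.86, 5.97 and 4.996 CPM in arteriole-side cells and 51.7, 58.7, 58.95 and 68.4 in arterial ECs, and *Gja5*, the gene of connexin 40, had no UMI in any of the 4 arteriole-side sums against 12.8, 21.7, 13.2 and 18.1 CPM in arterial ECs. Both connexins were therefore at or near 0 in the arteriole-side cells. 2 genes peaked in the arteriole-side cells in each mouse. *Cxcl12*, the ligand of CXCR4, was at 4186, 4245, 6534 and 6546 CPM against 2177, 2123, 4086 and 4001 in other capillary and 2389, 2175, 3367 and 2607 in arterial ECs. *Mfsd2a*, a lipid transporter that restrains transcytosis, was at 342, 306, 527 and 419 CPM against 220.2, 191, 319 and 246 and 196, 136, 330.3 and 192. *Slc16a1*, the monocarboxylate transporter MCT1, declined along the axis instead, from 765, 608, 655 and 496 CPM over 481, 384, 413 and 346 to 177, 148, 203 and 149.9.

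The comparison of genotypes within the arteriole-side cells asked what the constitutive loss of *Angpt2* changed in this segment. *Angpt2* itself was a rule gene and was at 11.98, 8.87, 9.51 and 9.70 CPM in the arteriole-side cells, with no separation of genotypes, and at 12.2, 12.3, 59.6 and 39.3 CPM in all ECs. The 3′ reads fall outside the deleted exon and check no label. UMIs were summed per mouse, and genotypes were tested on these sums by the quasi-likelihood method of edgeR, with Benjamini-Hochberg adjustment over all genes, at a threshold of 0.05. CPM of genes in that fit and in the interaction fits below are scaled by TMM factors, and sums over lists and levels of rule genes are not. Of 10234 genes tested outside the rule, 103 (1.01%) passed, 68 of them (0.664%) higher and 35 (0.342%) lower in *Angpt2*-KO, and 922 had an unadjusted p under 0.05. In each of the 103 genes both KO mice lay on the same side of both WT mice, which 19.2% of all tested genes did upwards and 19.3% downwards. Without the 123 fenestrated cells 122 of 9967 genes passed (1.22%), of which 86 (0.863%) were higher and 36 (0.361%) lower, and 90 were shared with the 103. The count rested on the WT mice, since only 7 genes passed without WT1 and 6 without WT2, against 138 without KO1 and 102 without KO2, and DESeq2 called 47. All 103 kept their direction in each of these 4 fits and in DESeq2. The p-values measure the spread between 2 mice a group, in which sex differs too.

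The 12 largest rises held genes of varied function. *Gda*, guanine deaminase of purine breakdown (chr19:21391307-21473445 on GRCm38, GENCODE M21), was at 2.74 and 4.51 CPM in the *Angpt2*-WT mice and 30.01 and 30.6 CPM in the *Angpt2*-KO mice (log2 fold change 3.02 ± 0.30 SE, adjusted p = 0.000105). *Ccn2*, the matricellular protein CTGF (chr10:24595442-24598683), was at 35.98 and 38.3 CPM in the *Angpt2*-WT mice and 149.5 and 119.8 CPM in the *Angpt2*-KO mice (log2 fold change 1.85 ± 0.15 SE, adjusted p = 1.81e-05). These 2 genes passed with each of the 4 mice left out in turn, and the other 22 of the 24 largest changes lost the call in at least 1 of those fits, most often without a WT mouse. *Ccn3*, of the same family, was at 7.43 and 12.2 CPM in the *Angpt2*-WT mice and 28.4 and 40.3 CPM in the *Angpt2*-KO mice (log2 fold change 1.78 ± 0.27 SE, adjusted p = 0.00396). *Ccn3* was found in 2.22, 1.87, 5.48 and 3.18% of arteriole-side cells and in 0% of microglia in each mouse, so its UMIs lay in few cells.

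*Cxcr4*, the receptor of CXCL12, was at 3.13 and 3.54 CPM in the *Angpt2*-WT mice and 12.1 and 23.3 CPM in the *Angpt2*-KO mice (log2 fold change 2.39 ± 0.40 SE, adjusted p = 0.00661, chr1:128588199-128592293). It was found in 1.94, 1.12, 7.31 and 7.96% of arteriole-side cells and in 1.23, 3.94, 1.92 and 1.55% of microglia. The shares in the WT mice were thus not above those in microglia throughout. Whether microglia lack *Cxcr4* was not tested, so their shares set no background for it. *S100a6*, a small calcium-binding protein, was at 6.26 and 6.44 CPM in the *Angpt2*-WT mice and 41.1 and 28.6 CPM in the *Angpt2*-KO mice (log2 fold change 2.44 ± 0.28 SE, adjusted p = 0.000345). It was found in 3.33, 2.06, 8.68 and 2.39% of arteriole-side cells and in 3.09, 3.15, 3.37 and 3.61% of microglia. Its share in KO2 was thus not above that in microglia, and its UMIs there lay in few cells. The CPM of the genotypes did not overlap in any of these genes. *Epdr1* was at 3.91 and 3.86 CPM in the *Angpt2*-WT mice and 15.8 and 18.4 CPM in the *Angpt2*-KO mice, *Uchl1*, a ubiquitin hydrolase, at 5.87 and 4.51 CPM in the *Angpt2*-WT mice and 27.9 and 14.6 CPM in the *Angpt2*-KO mice, *Ablim3*, an actin-binding LIM protein, at 1.96 and 1.93 CPM in the *Angpt2*-WT mice and 9.48 and 10.2 CPM in the *Angpt2*-KO mice and *Bicc1*, an RNA-binding protein, at 2.74 and 3.54 CPM in the *Angpt2*-WT mice and 13.7 and 10.7 CPM in the *Angpt2*-KO mice. Their log2 fold changes were 2.13 ± 0.33, 2.03 ± 0.36, 2.31 ± 0.44 and 1.92 ± 0.39 SE, with edgeR adjusted p of 0.00441, 0.0120, 0.0184 and 0.0252. In other capillary ECs of the same mice, the log2 fold changes were 3.66 for *Gda*, 1.88 for *Ccn2*, 1.23 for *Ccn3*, 1.85 for *Cxcr4* and 0.90 for *S100a6* (edgeR adjusted p of 1.77e-05, 0.000507, 0.205, 0.116 and 0.258).

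The remaining 3 of the 12 largest rises rested mainly on the fenestrated cells. *Aqp1*, a water channel, was at 1.17 and 9.02 CPM in the *Angpt2*-WT mice and 25.3 and 21.3 CPM in the *Angpt2*-KO mice (log2 fold change 2.10 ± 0.44 SE, adjusted p = 0.0321), *Thbs1*, thrombospondin-1, at 2.35 and 5.80 CPM in the *Angpt2*-WT mice and 10.5 and 26.7 CPM in the *Angpt2*-KO mice (log2 fold change 2.15 ± 0.45 SE, adjusted p = 0.0323) and *Pdlim1*, a cytoskeletal adaptor, at 0.391 and 1.61 CPM in the *Angpt2*-WT mice and 8.95 and 6.31 CPM in the *Angpt2*-KO mice (log2 fold change 2.79 ± 0.59 SE, adjusted p = 0.0322). Those 123 cells held 96.7% of the *Aqp1* UMIs of the members, 92.9% of the *Thbs1* UMIs and 75% of the *Pdlim1* UMIs, and without them none of the 3 genes had enough UMIs to be tested. The same cells held 95.97% of the UMIs of *Cyp26b1*, which degrades retinoic acid, and 70% of those of the chemokine *Cxcl10*, both among the largest falls. *Cyp26b1* was at 46.5 and 78.9 CPM in the *Angpt2*-WT mice and 24.2 and 17.95 CPM in the *Angpt2*-KO mice (log2 fold change -1.59 ± 0.25 SE, adjusted p = 0.00441) and *Cxcl10* at 5.08 and 11.3 CPM in the *Angpt2*-WT mice and 0.527 and 0.485 CPM in the *Angpt2*-KO mice, with 34 of its UMIs in the fenestrated cells of WT2. Of the 24 genes, 19 could be tested without these cells and 18 of those passed, the exception being *Ecrg4*. DESeq2 called 12 of the 24. It lost *Pdlim1*, *Ablim3*, *Thbs1*, *Aqp1*, *Bicc1*, *Cd79a*, *Cd52*, *Cxcl10*, *Ecrg4*, *Gm1673*, *Ttr* and *Sox9*. With 4 or more markers, 15 of the 24 could be tested and 4 passed.

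Among the other falls, *Lmntd1* was at 35.98 and 36.7 CPM in the *Angpt2*-WT mice and 11.1 and 12.6 CPM in the *Angpt2*-KO mice (log2 fold change -1.61 ± 0.23 SE, adjusted p = 0.00200), *Vstm2b* at 24.2 and 21.9 CPM in the *Angpt2*-WT mice and 6.32 and 7.28 CPM in the *Angpt2*-KO mice (log2 fold change -1.75 ± 0.28 SE, adjusted p = 0.00578) and *Sox9*, a transcription factor, at 14.5 and 21.3 CPM in the *Angpt2*-WT mice and 4.74 and 4.85 CPM in the *Angpt2*-KO mice (log2 fold change -1.90 ± 0.35 SE, adjusted p = 0.0137). The genotypes did not overlap in any of the 3. With DESeq2 the call of *Sox9* was lost (adjusted p = 0.105), and those of *Lmntd1* and *Vstm2b* held (adjusted p = 0.00763 and 0.0460). *Gm1673* was at 8.60 and 8.05 CPM in the *Angpt2*-WT mice and 0.527 and 1.94 CPM in the *Angpt2*-KO mice and *Ecrg4* at 14.1 and 10.6 CPM in the *Angpt2*-WT mice and 0 and 3.40 CPM in the *Angpt2*-KO mice, the latter with an adjusted p of 0.0339 in edgeR and 0.0544 without the fenestrated cells. *Ttr*, transthyretin, was at 829 and 736 CPM in the *Angpt2*-WT mice and 70.03 and 275 CPM in the *Angpt2*-KO mice (log2 fold change -2.18 ± 0.36 SE, adjusted p = 0.00676), with a wide range in the KO mice. *Ttr*, a defining gene of choroid plexus epithelium, was found in 96.7, 96.1, 38.4 and 67.9% of members and in 100.0, 95.3, 37.02 and 73.2% of microglia, which should lack it, at median depths of 5866, 4653, 7167 and 4357 and 3986, 3577, 6040.5 and 3219.5 UMIs. The shares in members were at or near the shares in microglia of the same library, so they are at the background and are not read as expression. The part of free RNA in the fall was not tested, and in KO2 the level in arterial ECs was higher than in the arteriole-side cells, as given with the interactions. *Ecrg4* was found in 8.61, 5.79, 0 and 1.86% of members and in 8.02, 3.15, 2.88 and 1.55% of microglia, so its shares too were close to that background.

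The steepest falls were those of *Cd79a*, *Cd74* and *Cd52*, followed by *Cxcl10*, given above, and *Igkc*, and they rested on few cells. *Cd79a*, a part of the B cell receptor, had 15 and 16 UMIs in WT1 and WT2 and 0 in both KO mice, at least 7.15-fold higher in WT against a floor of 3 UMIs over the KO group. It was found in 0.556, 0.374, 0 and 0% of cells, against 0.617, 1.57, 1.44 and 1.55% of microglia. *Igkc*, the immunoglobulin kappa constant region, had 32, 35, 2 and 1 UMIs, a WT to KO ratio of 15.5 with a counting interval of 5.07 to 76.8. *Cd52* had 17, 16, 0 and 1 UMIs, a ratio of 22.8 (3.82 to 929). Both intervals pool the mice of a genotype and take each UMI as independent, so they leave out the spread between cells and mice. *Igkc* was found in 0.556, 0.748, 0.913 and 0.265% of members and *Cd52* in 0.556, 1.31, 0 and 0.265%. *Cd74*, the invariant chain of class II molecules, was at 11.7 and 35.4 CPM in the *Angpt2*-WT mice and 0.527 and 1.46 CPM in the *Angpt2*-KO mice (log2 fold change -4.51 ± 0.68 SE, adjusted p = 0.00334). The lymphocyte list as a whole, 8 genes led by *Cd79a* with *Nkg7* at 0 UMIs, stood at 11.6, 12.2, 0.528 and 0.970 CPM. *Cd79a* itself held 5.61 and 5.26 CPM of it in WT1 and WT2, so the fall of the list in part restates that of *Cd79a*. The part of lymphocytes in the result was not tested.

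**Figure D3:**
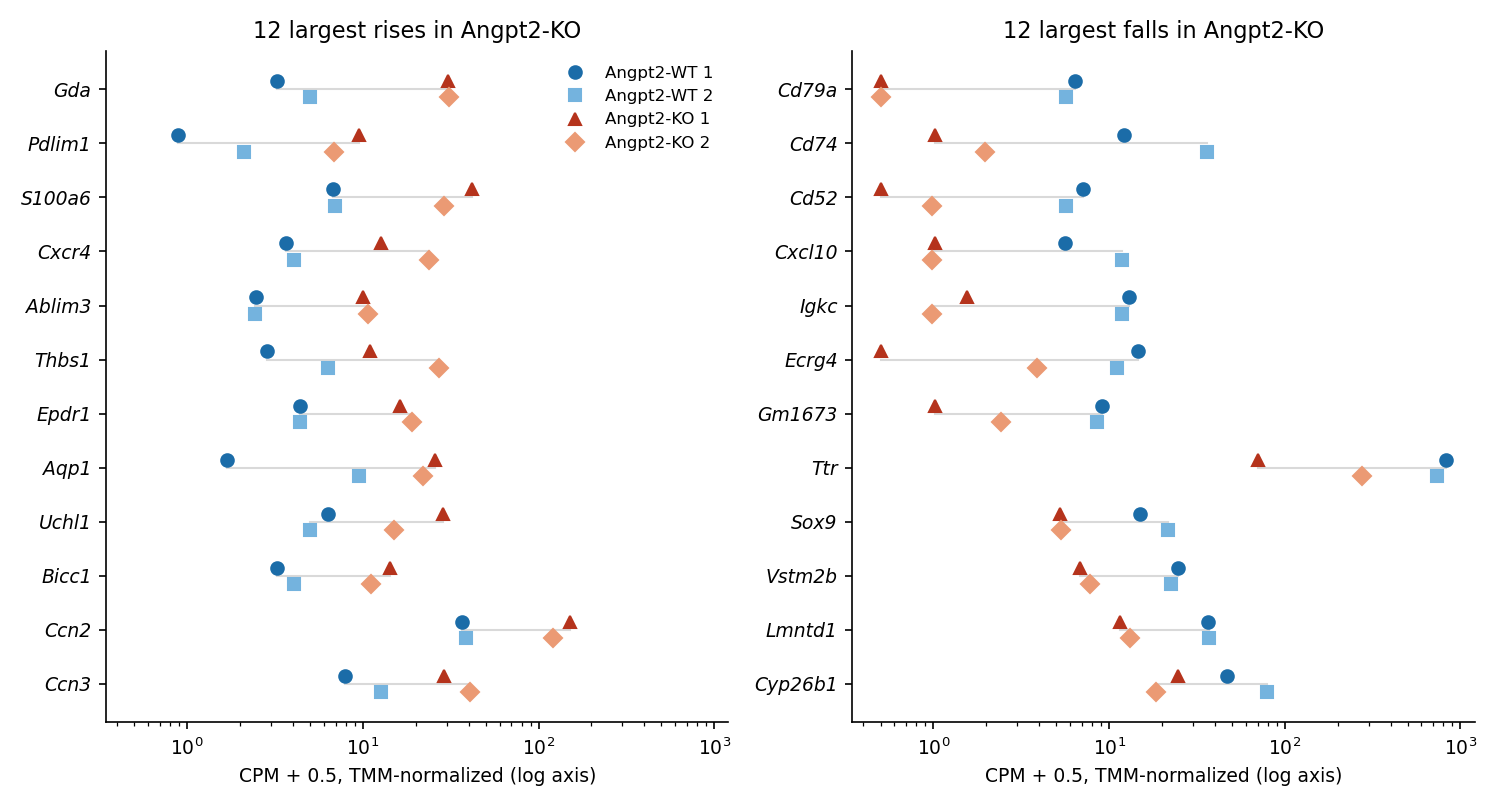
Level of the 12 genes with the largest rise (left) and the 12 with the largest fall (right) in *Angpt2*-KO arteriole-side cells, as TMM-normalized CPM + 0.5 on a log axis with 1 point per mouse. In each of the 24 genes the 2 KO points lie on one side of both WT points, and *Cd79a* has no UMI in either KO mouse.

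Among the called genes outside the 24, several better expressed ones are named here after their values were seen. Only the main edgeR fit is given for them. Of all 103 called genes, 44 also passed in DESeq2 and 63 in other capillary ECs. In members with no angiogenic gene of the rule detected, 33 of the 103 passed. *Ccnd1*, the gene of cyclin D1, was at 129 and 158 CPM in the *Angpt2*-WT mice and 355 and 462 CPM in the *Angpt2*-KO mice (log2 fold change 1.51 ± 0.16 SE, adjusted p = 0.000174). *Cebpd*, a transcription factor, was at 76.3 and 90.5 CPM in the *Angpt2*-WT mice and 238 and 235 CPM in the *Angpt2*-KO mice (log2 fold change 1.499 ± 0.13 SE, adjusted p = 1.81e-05), and *Cpe*, carboxypeptidase E, at 64.9 and 54.4 CPM in the *Angpt2*-WT mice and 177 and 156 CPM in the *Angpt2*-KO mice (log2 fold change 1.48 ± 0.14 SE, adjusted p = 4.19e-05). In these 3 genes every KO value was more than 2-fold above every WT value. *Spry4* and *Spry1*, feedback inhibitors of receptor tyrosine kinase signalling, rose by log2 fold changes of 1.16 ± 0.20 and 0.72 ± 0.16 SE, and so did *Edn1*, endothelin-1 (0.73 ± 0.15), *Gas6*, a ligand of TAM receptors (0.56 ± 0.13), and the small GTPase gene *Rnd1* (1.71 ± 0.22). The edgeR adjusted p of these 5 genes were 0.00746, 0.0372, 0.0312, 0.0450 and 0.00105. Of the transcription factors, *Meox1* was at 39.1 and 42.5 CPM in the *Angpt2*-WT mice and 104 and 82.96 CPM in the *Angpt2*-KO mice (log2 fold change 1.19 ± 0.16 SE, adjusted p = 0.00158), whereas *Tcf15* was at 59.8 and 79.9 CPM in the *Angpt2*-WT mice and 21.6 and 27.7 CPM in the *Angpt2*-KO mice (log2 fold change -1.505 ± 0.20 SE, adjusted p = 0.00148), and *Tbx1* and *Foxf1* fell by 0.81 and 0.80 on the log2 scale (edgeR adjusted p of 0.0312 and 0.0373). 2 genes that were higher in arteriole-side than in other capillary ECs moved with genotype in opposite directions, *Tec*, a tyrosine kinase, at 26.98 and 31.2 CPM in the *Angpt2*-WT mice and 70.6 and 68.4 CPM in the *Angpt2*-KO mice (log2 fold change 1.25 ± 0.17 SE, adjusted p = 0.00148), and *Slc26a10* at 93.1 and 95.96 CPM in the *Angpt2*-WT mice and 48.4 and 32.99 CPM in the *Angpt2*-KO mice (log2 fold change -1.22 ± 0.17 SE, adjusted p = 0.00200).

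Lists of pathway genes showed where the segment changed with genotype and where no change passed the test. Over all genes tested the median log2 fold change was -0.0071, and 1.01% passed in either direction. In the list of arterial gap junction, guidance and chemokine genes, 3 of 17 tested genes rose and 1 fell, with a median of 0.23. *Nrp1*, the co-receptor of VEGFA and class 3 semaphorins, was at 388 and 409.9 CPM in the *Angpt2*-WT mice and 604 and 639.9 CPM in the *Angpt2*-KO mice (log2 fold change 0.64 ± 0.14 SE, adjusted p = 0.0368), and *Plxna2*, a semaphorin receptor, at 223 and 179 CPM in the *Angpt2*-WT mice and 329 and 343 CPM in the *Angpt2*-KO mice (log2 fold change 0.74 ± 0.14 SE, adjusted p = 0.0193), while *Cxcr4* is described above. *Tmem100*, known as a target of BMP signalling through ALK1, was the gene that fell, at 26.6 and 28.7 CPM in the *Angpt2*-WT mice and 8.42 and 14.1 CPM in the *Angpt2*-KO mice (log2 fold change -1.28 ± 0.26 SE, adjusted p = 0.0283). It was found in 5.02 to 12.5% of members by mouse and in 17.9, 19.7, 30.8 and 19.1% of microglia. Since the share was higher in microglia in each mouse, they give no background for this gene. The comparison therefore cannot decide whether the members express it. *Cxcl12*, the most abundant gene of the list, was at 4157 and 3779 CPM in the *Angpt2*-WT mice and 5844 and 5809 CPM in the *Angpt2*-KO mice, with an adjusted p of 0.0809 in edgeR and 0.0210 without the fenestrated cells. Its log2 fold change was 0.55 here and 0.88 in other capillary ECs, where it passed (edgeR adjusted p = 0.00682). In the interaction test described below, the difference was -0.32 (edgeR adjusted p = 0.00323). The call of *Nrp1* was lost with any 1 of the 4 mice left out, and those of *Plxna2* and *Tmem100* held in 1 of these 4 fits each.

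In the basement membrane list 2 of 21 tested genes rose and none fell. *Lama4*, the laminin α4 chain of endothelial basement membrane, was at 71.6 and 63.4 CPM in the *Angpt2*-WT mice and 120.0 and 109.6 CPM in the *Angpt2*-KO mice (log2 fold change 0.77 ± 0.14 SE, adjusted p = 0.0110), and *Nid1*, which links laminin to collagen IV, at 69.6 and 64.7 CPM in the *Angpt2*-WT mice and 111 and 105 CPM in the *Angpt2*-KO mice (log2 fold change 0.69 ± 0.13 SE, adjusted p = 0.0197, adjusted p = 0.0769 without the fenestrated cells). With each mouse left out, *Lama4* passed in 2 of the 4 fits and *Nid1* in 1. The calls of *Lama4* and *Nid1* were also lost with DESeq2 (adjusted p = 0.0588 and 0.156). With no angiogenic gene detected they were lost too, at log2 fold changes of 0.71 and 0.26 (edgeR adjusted p = 0.0676 and 0.848). Both KO mice were above both WT mice in 14 of the 21 genes and below both in 0, where 19.2% and 19.3% of all tested genes were, and the list median was 0.23. *Sparc*, the most abundant of them, was at 1660.5 and 1790.4 CPM in the *Angpt2*-WT mice and 2314 and 1915 CPM in the *Angpt2*-KO mice and did not pass. In the list of tip cell and sprouting genes outside the rule, *Ccn2* and *Cxcr4* rose, both KO mice were above both WT mice in 10 of 17 genes and below both in 0, and the median was 0.34. *Col4a1*, its most abundant gene, was at 639.8 and 629.9 CPM in the *Angpt2*-WT mice and 883 and 863 CPM in the *Angpt2*-KO mice (edgeR adjusted p = 0.196). Integrin and focal adhesion genes had no call among 18, a median of 0.26 and 10 genes above both WT mice against 2 below.

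The Notch pathway and arterial transcription factors, whose summed level was 3178, 3197, 3265 and 3207 CPM without the fenestrated cells, against 2536, 2545, 2549.8 and 2356 in other capillary and 3745, 3615, 3847 and 3749 in arterial ECs, had no genotype call among 21 tested genes, with a median of -0.06 and log2 fold changes between -0.47 and 0.49. *Ets1* was its most abundant gene, at 646 and 506 CPM in the *Angpt2*-WT mice and 618 and 568 CPM in the *Angpt2*-KO mice. *Hey1* was at 64.9 and 69.2 CPM in the *Angpt2*-WT mice and 90.6 and 93.1 CPM in the *Angpt2*-KO mice (log2 fold change 0.45 ± 0.14 SE, edgeR adjusted p = 0.196) and *Dll4* at 125 and 132 CPM in the *Angpt2*-WT mice and 161 and 177 CPM in the *Angpt2*-KO mice (0.39 ± 0.12 SE, edgeR adjusted p = 0.215), so both were higher in the 2 KO mice without passing. Changes of 2-fold were recovered in 79.8% of cases in simulated counts of these cells, and smaller ones were not simulated.

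Genes of the barrier itself were also without a call. Of 23 tested transporters 0 passed, with a median of 0.07, and 1, *Slc39a8*, passed without the fenestrated cells. The most abundant transporter, *Slco1a4*, was at 2496 and 2237 CPM in the *Angpt2*-WT mice and 2542 and 2434 CPM in the *Angpt2*-KO mice, and *Slc2a1*, the glucose transporter GLUT1, at 1461 and 1434 CPM in the *Angpt2*-WT mice and 1810.1 and 1811 CPM in the *Angpt2*-KO mice (edgeR adjusted p = 0.492). Junction genes (0 of 13, led by *Ctnnb1* at 894 and 839 CPM in the *Angpt2*-WT mice and 801 and 770.4 CPM in the *Angpt2*-KO mice), Wnt and β-catenin genes (0 of 20, led by *Foxq1*), shear response and cavernous malformation genes (0 of 13, led by *Klf2*), transcytosis and caveola genes (0 of 11, led by *Cavin2*), glycolysis and hypoxia genes (0 of 19) and leukocyte adhesion and coagulation genes (0 of 10, led by *Plat*) had medians from -0.04 to 0.10. In the VEGF, angiopoietin and Tie list *Nrp1* was the 1 call among 11, and *Tmem100* the 1 among 21 BMP and TGF-β genes. Their most abundant genes, *Ptprb*, which dephosphorylates TEK, and *Bmpr2*, were at 2039 and 1858 CPM in the *Angpt2*-WT mice and 2029 and 2466 CPM in the *Angpt2*-KO mice and 892 and 744 CPM in the *Angpt2*-WT mice and 932 and 1074 CPM in the *Angpt2*-KO mice. Interferon response genes had no call among 21, yet 20 of them had a log2 fold change below 0, the median was -0.19 and both KO mice were below both WT mice in 9, where 19.3% of all tested genes were. Their summed level was 5855, 7211, 6059 and 5515 CPM, so the sums of the genotypes overlapped. Immediate early and heat shock genes had none among 22 and a median of -0.11. Without the fenestrated cells, calls were gained by *Robo4* and *Cxcl12* in the guidance list, *Ccn1* in the tip cell list and *Ehd4* in the transcytosis list, all higher, and by *Ier3* in the immediate early list, which was lower.

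**Figure D4:**
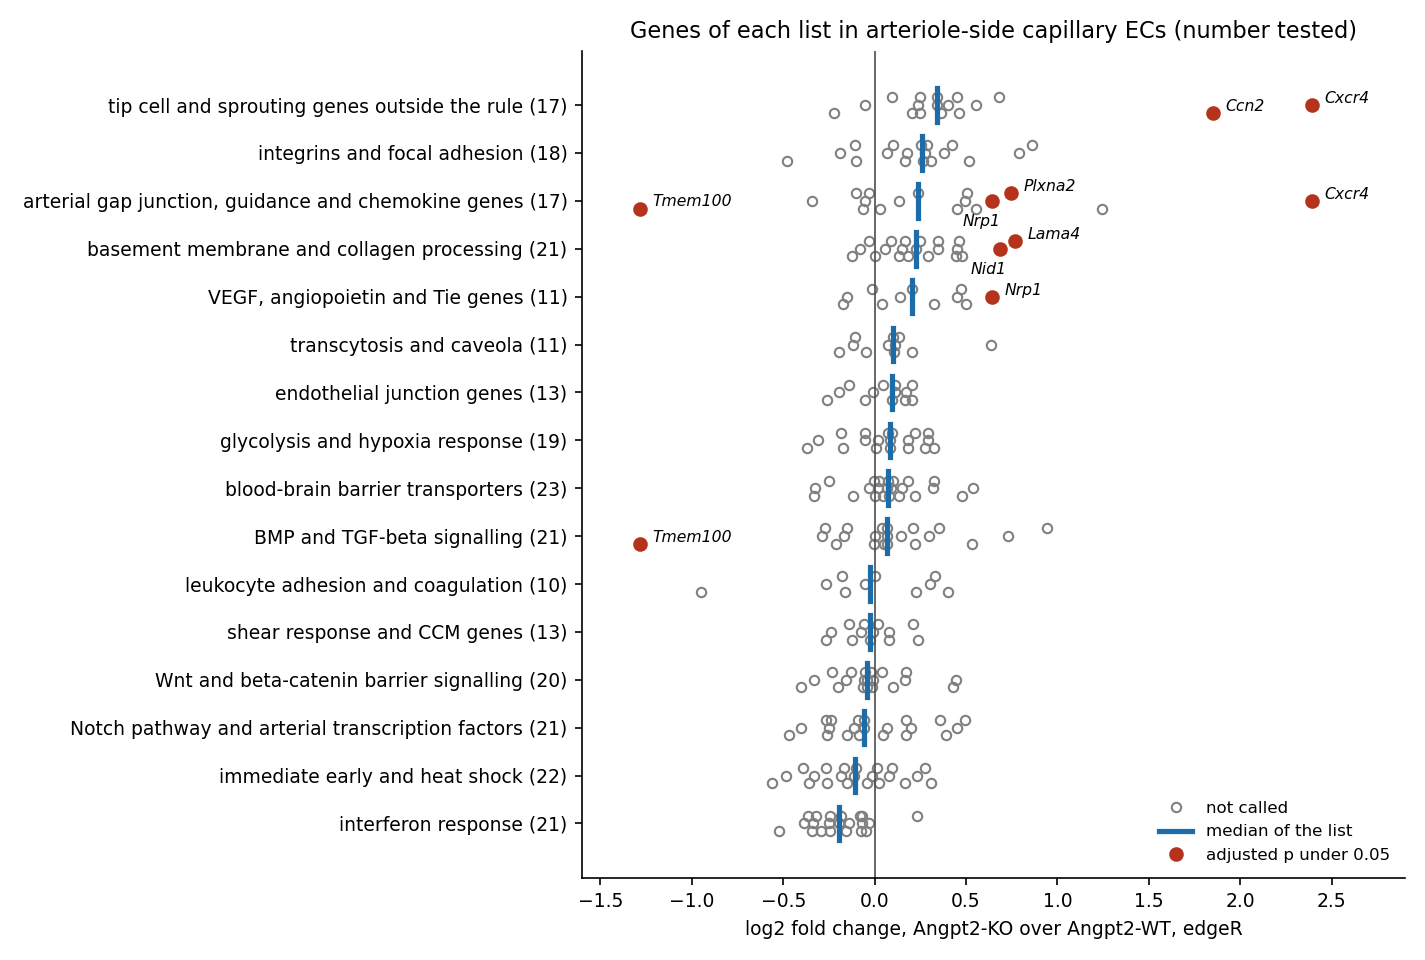
Log2 fold change of *Angpt2*-KO over *Angpt2*-WT in arteriole-side capillary ECs for each tested gene of 16 lists (open circles; filled where the edgeR adjusted p was under 0.05), with the median of each list as a bar and the number tested in brackets. Filled genes are found in 5 lists, and the basement membrane, integrin and tip cell lists have medians between 0.23 and 0.34.

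4 of the 6 angiogenic genes of the rule, *Esm1*, *Itga4*, *Nog* and *Apln*, described without a test, were at higher levels in both KO mice although cells with 2 or more such genes had been left out. *Esm1*, endothelial cell-specific molecule 1, was at 55.02, 82.8, 142 and 183 CPM and *Itga4*, integrin α4, at 23.6, 18.1, 58.1 and 37.8 CPM. Most *Esm1* lay in the fenestrated cells, at 867, 598, 1194 and 1312 CPM there against 0.399, 0.381, 4.78 and 19.98 in the rest, while *Itga4* was at 25.2, 20.97, 64.5 and 42.2 CPM in the rest. In all ECs, which include the cells left out, *Esm1* was at 39.5, 48.98, 259 and 136 and *Itga4* at 19.5, 15.6, 201 and 116 CPM. Exactly 1 of the 6 angiogenic genes was detected in 24.4, 21.7, 56.6 and 37.7% of members, more in both KO mice. When cells with any such gene were also left out, 43 genes passed in place of 103, 33 of them shared, and 10 of 16 tested among the 24 largest changes. When the limit was dropped, 441 passed, 89 of them shared. *Nog*, a secreted BMP antagonist, was at 3.74, 1.97, 6.87 and 7.28 CPM and *Apln*, a ligand of the apelin receptor, at 0.374, 0.329, 2.11 and 3.88 CPM, each on 15 UMIs or fewer per mouse. *Angpt2*, as given above, and *Fgfbp1*, at 0, 4.60, 2.64 and 4.37 CPM, overlapped between genotypes.

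Whether the genotype difference of arteriole-side cells differed from that of other ECs was tested with an interaction term, with the mouse in the model. Of the 103 genes, 13 differed from other capillary ECs and 7 from arterial ECs by this test, and for the others no difference between the populations was shown. In a fit of each population by itself, 63 of the 103 were also among the 197 genes that passed in other capillary ECs (1.69% of those tested) and 9 among the 23 in arterial ECs (0.221%), so most of the changes were not shown to be particular to the arteriole-side cells. The populations come from the same 4 mice. *Nrp1*, *Plxna2*, *Lama4* and *Nid1* were among the 63, with log2 fold changes of 0.64, 0.74, 0.77 and 0.69 in arteriole-side cells and 0.64, 0.88, 0.81 and 0.61 in other capillary ECs. Arterial ECs were few in KO1 (99 cells). Over all genes, 47 of 11084 (0.424%) differed between arteriole-side and other capillary ECs, 16 (0.144%) with a more positive and 31 (0.28%) with a more negative fold change in arteriole-side cells, and 680 had an unadjusted p under 0.05. Between arteriole-side and arterial ECs 18 of 10626 differed (0.169%), 13 in the positive (0.122%) and 5 in the negative direction (0.0471%), with 685 at an unadjusted p under 0.05. Without the fenestrated cells the first count was 40 of 10929 (0.366%, with 0.0915% positive and 0.274% negative) and the second 25 of 10423 (0.24%, with 0.192% positive and 0.048% negative). Both counts moved with the mice kept. Without WT1, WT2, KO1 and KO2 in turn, 28, 11, 13 and 25 genes differed from other capillary ECs and 9, 8, 62 and 43 from arterial ECs, and DESeq2 called 1 and 3.

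*Serpine2*, a serpin that inhibits thrombin and related proteases, was, of the 5 genes with the most positive differences in the first comparison, the 1 outside the fenestrated genes that also passed without the fenestrated cells. It was found in 13.9, 12.9, 24.7 and 22.3% of members and in a larger share of microglia, 56.2, 58.3, 75.96 and 58.8%. Its CPM were 26.2, 28.02, 71.6 and 64.5 in arteriole-side cells and 27.02, 26.04, 27.9 and 29.1 in other capillary ECs, log2 fold changes of 1.32 and 0.11 (difference 1.20 ± 0.19 SE, adjusted p = 0.000211 in edgeR). The interaction passed with each mouse left out except KO1 (adjusted p = 0.0610). *Igfbp3*, a binding protein of insulin-like growth factors, was at 418, 353, 692 and 679 CPM and 34.1, 79.9, 31.8 and 63.5 CPM in the 2 populations (difference 1.06 ± 0.22 SE, adjusted p = 0.00994 in edgeR). Its adjusted p was 0.977 without WT2 and 0.842 without KO1, and as 1 of the 8 fenestrated genes it is part of how those cells were picked. *Slc43a3*, *Atp2b4* and *Cd24a* had positive differences of 1.43, 1.27 and 1.10 (edgeR adjusted p of 0.000263, 0.0328 and 4.86e-05) with no genotype call in either population by itself. Without the fenestrated cells *Slc43a3* had too few UMIs to be tested, and *Atp2b4* and *Cd24a* had adjusted p of 0.934 and 0.969. The 5 most negative were *Cd79a*, *H2-Aa*, *Lsp1*, *H2-Eb1* and *Cd52*, genes of leukocytes and of class II antigen presentation. *H2-Aa* had 11, 26, 0 and 0 UMIs in the arteriole-side sums and 50, 57, 14 and 124 in the other capillary sums.

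Against arterial ECs the rises of *S100a6*, *Ccn3* and *Gda* stood out. *S100a6* was at 6.26, 6.44, 41.1 and 28.6 CPM in arteriole-side cells and 85.2, 148, 60.9 and 101 in arterial ECs (difference 2.94 ± 0.33 SE, adjusted p = 4.09e-06 in edgeR). *Ccn3* was at 7.43, 12.2, 28.4 and 40.3 and 47.7, 94.5, 37.9 and 68.4 CPM (difference 2.21 ± 0.26 SE, adjusted p = 6.70e-06 in edgeR), and *Gda* at 2.74, 4.51, 30.01 and 30.6 and 22.5, 25.7, 41.9 and 47.1 CPM (difference 2.14 ± 0.35 SE, adjusted p = 0.00181 in edgeR). In all 3 genes both WT arteriole-side values lay below every arterial value. The *Ccn3* UMIs of KO1 and KO2 lay in 5.48 and 3.18% of the arteriole-side cells, and its difference kept its sign in 9 of 10 alternative settings. *S100a6* and *Ccn3* kept an adjusted p under 0.05 with each mouse left out, while *Gda* lost it without WT1 (0.124) and without WT2 (0.0689). *Ptprj*, a receptor phosphatase, *Ndnf* and *Ptn*, pleiotrophin, had negative differences of -1.12, -0.76 and -0.43 and no genotype call in the arteriole-side cells. *Ttr* was at 829, 736, 70.03 and 275 and 526, 525, 70.9 and 902 CPM in the 2 populations, and the call was lost without KO2 (adjusted p = 0.359).

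**Figure D5:**
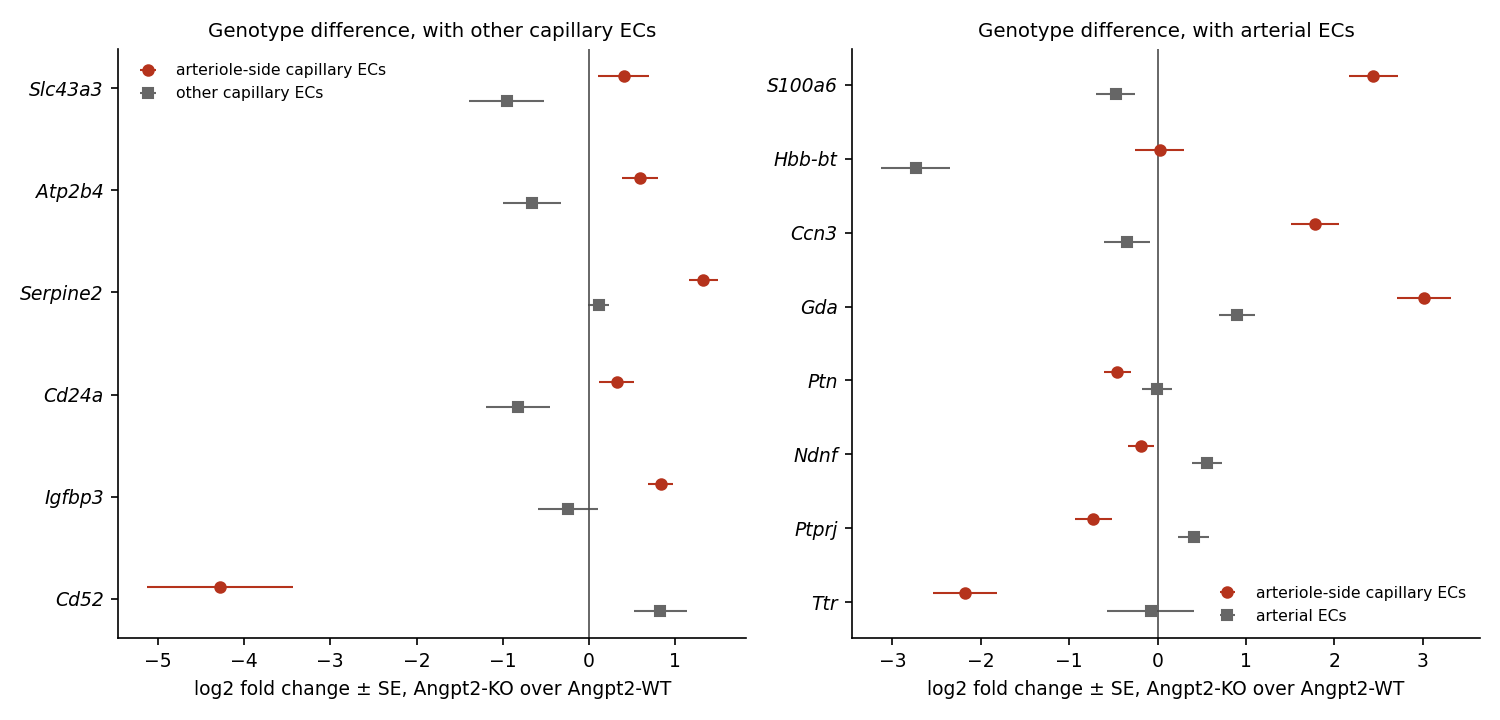
Log2 fold change ± SE of *Angpt2*-KO over *Angpt2*-WT in arteriole-side capillary ECs (circles) and in other capillary ECs (left) or arterial ECs (right, squares) for the named genes whose genotype difference differed between the populations. *Serpine2* is near 1.32 against 0.11, and *S100a6* near 2.44 against -0.47. Genes without a UMI in both mice of a group (*Cd79a*, *Olfm5*) and genes not tested in arteriole-side cells alone are left out.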

How the data were processed

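Cerebral microvascular cells of 4 mice were profiled with 10x 3′ chemistry. The deposited files hold UMI counts per gene and cell, which the authors made with Cell Ranger on mm10; the submitters' processing notes name version 6.1.2 and the matrix headers 6.1.1. Strand use is not given in the sources used here. Cells with 500 genes or fewer or 10% or more mitochondrial UMIs were removed, which left 17999 of 19809 barcodes and 140111604 UMIs. No doublet caller was run, and no member lay above the 99th percentile of UMIs of its library. UMIs were summed per mouse over the chosen cells and tested with edgeR 4.0.16 in R 4.3.3 (filterByExpr, TMM, quasi-likelihood test, Benjamini-Hochberg adjustment). The interaction fits took the sums of 2 populations with the mouse as a term. The 35 genes of the rule were left out of the counts of calls. Shares were compared by exact permutation tests over mice. Levels between populations carry no test. The depth of 1893034 to 3042942 UMIs per sum limits low genes, and in simulated counts of the genotype comparison 79.8% of 2-fold and 97.0% of 4-fold changes were recovered with 5 false calls among 10097 genes. In simulated interactions with other capillary and arterial ECs, 53% and 57.1% of 2-fold and 93% and 85% of 4-fold differences were recovered. False calls there numbered 4 and 7. In all simulations the spread between mice depended on the level of a gene alone, so recovery in the real counts may be lower. The members, the gene lists and the tests were chosen with earlier results of these data known. Named genes are the 12 largest rises and falls among called genes without overlap of the genotypes, up to 4 called genes and the most abundant gene of each list, the 5 largest interactions in each direction, and the 10 largest smallest-per-mouse folds between populations at 20 CPM or more; others are said to be named after their values were seen, and a few genes that meet the rule are not reported here. Of 32286 features, 32158 were found in GENCODE M21 (GRCm38), the source of coordinates. Alternatives were DESeq2 1.42.0 and its size factors, count filters, other marker numbers and limits, thinning to 2000 UMIs, a replicate block and leaving out each mouse.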

Additional observations from a re-analysis of the deposited data

Results flagged for a closer look

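Each value here is the genotype log2 fold change (*Angpt2*-KO over *Angpt2*-WT) of arteriole-side cells minus that of a second population, and was picked out because the edgeR interaction test found the 2 populations to differ. Against other capillary ECs the positive differences were 1.43 for *Slc43a3*, a purine nucleobase transporter, 1.27 for *Atp2b4*, a plasma membrane calcium pump, 1.20 for *Serpine2*, 1.10 for *Cd24a* and 1.06 for *Igfbp3*, with adjusted p of 0.000263, 0.0328, 0.000211, 4.86e-05 and 0.00994. Of these, *Serpine2* passed without the fenestrated cells. *Igfbp3* did too, but it is 1 of the 8 genes by which those cells were removed, and its adjusted p was 0.977 without WT2 and 0.842 without KO1. The calls were lost without WT2 for *Slc43a3* (0.221) and *Cd24a* (0.744), without KO1 for *Serpine2* (0.0610) and *Cd24a* (0.0652), and with any 1 mouse left out for *Atp2b4*.

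The negative differences rested on few UMIs of leukocyte genes, and a fitted value against a group at 0 UMIs depends on the prior count and is no bound. *Cd79a* (-8.75, adjusted p = 0.000140) had 15, 16, 0 and 0 UMIs in arteriole-side cells and 28, 50, 83 and 18 in other capillary ECs. *H2-Aa* (-8.44, adjusted p = 0.000334) and *H2-Eb1* (-5.65, adjusted p = 6.87e-05) encode class II chains, and *H2-Eb1* had 11, 35, 0 and 1 UMIs in arteriole-side cells and 40, 68, 19 and 144. *Lsp1* (-7.78, adjusted p = 0.0376) had 1, 13, 0 and 0 UMIs in arteriole-side cells and 10, 20, 15 and 43, and *Cd52* (-5.23, adjusted p = 0.000702) had 17, 16, 0 and 1 UMIs in arteriole-side cells and 27, 100, 56 and 110. Each of these 5 lost its call with at least 1 mouse left out, with adjusted p of 0.689 for *Cd79a* and 0.213 for *Cd52* without KO1, 0.618 for *H2-Aa* and 0.280 for *H2-Eb1* without KO2, and 0.970 for *Lsp1* without WT2. The part of leukocytes in these results was not tested.

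Against arterial ECs the positive differences were 2.94 for *S100a6*, 2.21 for *Ccn3*, 2.14 for *Gda*, 2.57 for *Hbb-bt* and 8.55 for *Olfm5*. *Hbb-bt*, a β-globin gene (adjusted p = 0.00227), had 1570, 1717, 1624 and 681 UMIs in arteriole-side cells and 5174, 3957, 47 and 537 in arterial ECs, with the fewest in the arterial cells of the KO mice, and its adjusted p was 0.199 without WT1 and 0.281 without WT2. *Olfm5* (adjusted p = 0.00178) had 12, 18, 41 and 0 UMIs in arteriole-side cells and 75, 27, 0 and 0, and its adjusted p was 0.124 without WT1 and 1 without KO1. The negative differences were -1.91 for *Ttr*, -1.12 for *Ptprj*, -0.76 for *Ndnf* and -0.43 for *Ptn*, with adjusted p of 1.29e-06, 0.0337, 0.00819 and 0.0426. Without WT1 or WT2 the adjusted p was 0.314 or 0.364 for *Ptprj*, 0.314 or 0.117 for *Ndnf* and 0.199 or 1 for *Ptn*, and without KO2 it was 0.359 for *Ttr*. *Ndnf* was at 227, 166, 178 and 165 CPM in arteriole-side cells and 70.9, 55.4, 94.8 and 91.98 CPM in arterial ECs.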

How the results depend on the processing

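The counts of called genes depended on the processing more than their direction. For genotype in arteriole-side cells, 103 genes became 47 with DESeq2, 226 without a filter on low counts, 10 with 4 or more markers, 43 with no angiogenic gene allowed, 12 with cells thinned to 2000 UMIs and 441 without the angiogenic limit (the last added after seeing the data), and 6 to 138 with each mouse left out. For the interaction with other capillary ECs, 47 became 1 with DESeq2, 75 without a filter, 6 after thinning and 11 to 28 with each mouse left out. For that with arterial ECs, 18 became 3, 44, 2 and 8 to 62 in the same order. All called genes that could be tested kept their direction in these settings, except 1 of 70 (genotype), 6 of 41 and 2 of 17 (interactions) after thinning and 1 of 103 without the angiogenic limit. With DESeq2 size factors in edgeR the counts were 101, 55 and 17. Thinning and stricter marker limits leave fewer UMIs, and the other causes were not tested.

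The difference in the share of ECs, -1.53 percentage points, turned to 2.69 without the angiogenic limit and to 1.61 with only ECs within that limit as the denominator, and ranged from -2.02 to -1.05 with each mouse left out. Of single genes, the genotype log2 fold change of *Igfbp3* turned from 0.83 to -0.19 without the angiogenic limit, and that of *Olfm5*, which was 0.98 and not called, ranged from -6.78 (without KO1) to 2.02 with each mouse left out.

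Replicate numbers coincide with sex and form 2 pairs. The paper mentions 2 independent experiments, and no sample label ties the replicate numbers to them. The deviations of same-numbered mice correlated at r = 0.126 over 10263 genes (-0.0297 without 8 sex-linked genes), so the numbers were not treated as pairs. With a replicate block the counts were 185, 73 and 49 (the last added after seeing the data). With 2 mice a group, genes with few UMIs are the least certain.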

Other observations

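Fenestrated-type ECs were not limited to the arteriole side. By the same 8 genes, 127, 331, 183 and 213 ECs of the 4 mice had 3 or more, which is 3.79, 6.64, 8.09 and 4.92% of ECs. Among the members, 49.2, 42.4, 46.6 and 42.4% had exactly 1 of the 7 arterial genes and 17.8, 13.5, 20.5 and 13.8% exactly 1 of the 6 venous genes.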
